A study of Danio rerio with 16 samples.

Results

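The 10 genes described here are hmgcs1, hmgcra, fdps, FDFT1, SQLE, lss, cyp51, msmo1, dhcr7 and insig1, which act in or on the pathway that makes cholesterol, among 15304 protein-coding genes measured in the whole brain of adult zebrafish. They were picked by gene symbol, and all 10 were found in the table of expression values. The choice was made with values of these libraries in view. In the strain SH, hmgcs1 and SQLE were lower in males than in females, in the strain HSB they were higher in males, and the question was whether the rest of the pathway followed. The male and female levels of all 10 genes in SH and HSB are therefore given as a description, with no test. AB, LSB and the levels of the strains were not part of the pattern behind the choice. Earlier results of these data were nonetheless known when the genes and tests were chosen.

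Brains came from males and females of 4 zebrafish strains, AB, LSB, SH and HSB, all 17 weeks old and untreated, with no transgene or mutation named for any of them. AB and SH (Scientific Hatcheries) were bought from suppliers, whereas LSB (Low Stationary Behavior) and HSB (High Stationary Behavior) descend from wild-caught fish that were bred selectively. Each of the 8 combinations of strain and sex had 2 libraries, and each library held pooled RNA from 10 fish of the same strain and sex, so that 16 libraries were compared and differences between single fish cannot be seen. All fish lived in mixed-sex tanks, and a part of the LSB and HSB fish had been through a behavioral test some weeks earlier. Values are CPM, the share of a library's reads on genes that fell on a gene, times 1000000. Libraries held between 18398865 and 35737825 reads on genes, and each of the 10 genes had at least 290 reads in every library.

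Animal cells build cholesterol from acetyl-CoA through mevalonate, farnesyl diphosphate, squalene and lanosterol. In mammals the genes of this pathway are switched on together by the transcription factor SREBP2, which its escort protein SCAP carries out of the endoplasmic reticulum when sterols run low, while INSIG proteins hold it back when sterols are plentiful. The mammalian brain makes its own cholesterol, since lipoproteins of the blood hardly enter it, and myelin holds much of that cholesterol. The roles given below were mostly worked out in mammals and yeast.

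The first committed steps were carried by hmgcs1 and hmgcra. The gene hmgcs1 (ENSDARG00000052738) encodes the cytosolic HMG-CoA synthase. In SH its level was 144 and 147 CPM in the female pools and 89.6 and 86.2 CPM in the male pools, and in HSB it was 91.5 and 101 CPM in the female pools and 120.2 and 121 CPM in the male pools. AB females held 101 and 106 CPM and AB males 89.7 and 82.4 CPM, while LSB females held 92.5 and 84.9 CPM and LSB males 80.2 and 89.6 CPM. The SH females thus stood above all other libraries, the HSB males came next, and only in LSB did the pools of the sexes overlap. By group means, males were 39.6% lower than females in SH and 25.5% higher in HSB. The gene hmgcra (ENSDARG00000052734) encodes an HMG-CoA reductase, the rate-limiting enzyme of the pathway and the target of statins. It was at 91.6 and 85.9 CPM in SH females against 57.7 and 62.2 CPM in SH males, and at 53.5 and 60.8 CPM in HSB females against 70.3 and 70.7 CPM in HSB males. In AB it was at 47.6 and 60.6 CPM in females and 48.9 and 44.9 CPM in males, and in LSB at 63.0 and 55.3 CPM in females and 54.6 and 66.2 CPM in males. Male and female pools were apart in SH and in HSB, in opposite directions, and overlapped in AB and LSB. The level of SH males was 32.5% below that of SH females, and that of HSB males 23.5% above that of HSB females.

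The next members, fdps and FDFT1, lead from isoprenoid units to squalene. The enzyme of fdps (ENSDARG00000040890), farnesyl diphosphate synthase, makes the precursor that sterols share with prenylated proteins and ubiquinone. SH females had 97.9 and 94.8 CPM and SH males 77.8 and 76.3 CPM, whereas HSB females had 89.9 and 86.0 CPM and HSB males 101 and 109 CPM. AB pools were at 97.5 and 91.5 CPM in females and 89.6 and 83.1 CPM in males, and LSB pools at 89.3 and 79.1 CPM in females and 75.6 and 83.2 CPM in males. The highest fdps values were those of HSB males, 19.6% above HSB females by group means, and SH males were 20.0% below SH females. Squalene synthase, which joins a pair of farnesyl diphosphates in the first step that leads to sterols alone, is encoded by FDFT1 (ENSDARG00000060260). FDFT1 was measured at 21.5 and 22.3 CPM in SH females, 17.1 and 13.5 CPM in SH males, 15.9 and 15.8 CPM in HSB females and 17.1 and 18.3 CPM in HSB males. Its values in AB were 15.2 and 14.4 CPM for females and 13.7 and 12.9 CPM for males, and in LSB 12.98 and 13.3 CPM for females and 14.1 and 15.4 CPM for males. No pools overlapped between the sexes in any strain for this gene, with males lower in AB and SH and higher in LSB and HSB. The SH male pools lay far apart from each other, and the mean of these pools was 30.1% below that of SH females.

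SQLE and lss turn squalene into the first sterol. Squalene epoxidase, the oxygen-requiring enzyme encoded by SQLE (ENSDARG00000079946), is a further control point of the pathway. Its transcript was at 60.9 and 60.5 CPM in SH females and 38.6 and 33.8 CPM in SH males, and at 43.4 and 46.6 CPM in HSB females and 58.9 and 56.8 CPM in HSB males. The AB pools held 44.1 and 43.5 CPM in females and 37.0 and 35.6 CPM in males, and the LSB pools 36.4 and 35.5 CPM in females and 32.3 and 38.2 CPM in males. SQLE therefore had the profile of hmgcs1, with SH females and HSB males above the other 12 libraries. Males were 40.4% lower in SH and 28.5% higher in HSB. Lanosterol synthase, which folds the epoxide into lanosterol, is encoded by lss (ENSDARG00000061274). Its values were 21.0 and 23.0 CPM in SH females, 17.9 and 15.5 CPM in SH males, 21.9 and 21.8 CPM in HSB females and 25.2 and 23.1 CPM in HSB males. AB females had 20.0 and 18.3 CPM, AB males 17.9 and 15.0 CPM, LSB females 18.9 and 17.6 CPM and LSB males 19.8 and 18.4 CPM. The sexes did not overlap in SH, HSB or AB. SH males were 24.1% below SH females, a larger step than the 10.7% by which HSB males exceeded HSB females.

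The genes cyp51, msmo1 and dhcr7 encode enzymes that trim lanosterol down to cholesterol. The sterol 14-alpha-demethylase, product of cyp51 (ENSDARG00000042641), takes the first methyl group away. Its level was 109.8 and 115 CPM in SH females and 95.8 and 83.0 CPM in SH males, against 101 and 91.4 CPM in HSB females and 110.2 and 113 CPM in HSB males. AB females were at 77.6 and 81.0 CPM and AB males at 80.9 and 82.0 CPM, while LSB females were at 79.3 and 88.8 CPM and LSB males at 87.8 and 92.2 CPM. AB stood lowest and its sexes overlapped, and cyp51 was the sole member whose mean was higher in AB males than in AB females. For msmo1 (ENSDARG00000055876), the methylsterol monooxygenase that removes the methyl groups at carbon 4 of the sterol ring, SH females held 94.2 and 94.6 CPM and SH males 73.5 and 70.4 CPM. The HSB pools were at 89.3 and 100.2 CPM in females and 106 and 108 CPM in males. The AB values were 97.8 and 99.99 CPM in females and 96.5 and 88.8 CPM in males, and the LSB values 86.2 and 90.2 CPM in females and 79.4 and 84.9 CPM in males. SH males were the lowest group for msmo1, and SH females, the top group for hmgcs1 and SQLE, stayed within the range of AB and HSB females. The last reduction, of 7-dehydrocholesterol to cholesterol, is made by the product of dhcr7 (ENSDARG00000015564). It was at 40.5 and 50.4 CPM in SH females, 40.6 and 37.0 CPM in SH males, 28.5 and 34.0 CPM in HSB females and 31.9 and 32.4 CPM in HSB males. AB females held 35.1 and 39.0 CPM, AB males 31.9 and 34.2 CPM, LSB females 27.3 and 30.1 CPM and LSB males 29.0 and 32.0 CPM. In both SH and HSB the pools of the sexes overlapped. The SH male pool at 37.0 CPM lay below the AB female pool at 39.0 CPM, and the remaining SH pools lay above all pools of the other strains.

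The remaining member, insig1 (ENSDARG00000010658), makes no sterol. Its protein is the sterol-dependent brake of the pathway, and in mammals the gene is itself a target of SREBP. Levels were 114 and 109 CPM in SH females, 107 and 108 CPM in SH males, 106 and 104 CPM in HSB females and 106 and 105 CPM in HSB males. AB females were at 89.8 and 106 CPM, AB males at 90.1 and 86.3 CPM, LSB females at 99.2 and 89.9 CPM and LSB males at 86.9 and 96.0 CPM. SH males were 3.69% below SH females, the HSB pools of the sexes were interleaved, and AB and LSB had the lower means of the 4 strains. Across all 10 genes the group with the highest mean was SH females for hmgcs1, hmgcra, FDFT1, SQLE, cyp51, dhcr7 and insig1, and HSB males for fdps, lss and msmo1.

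**Figure D1:**
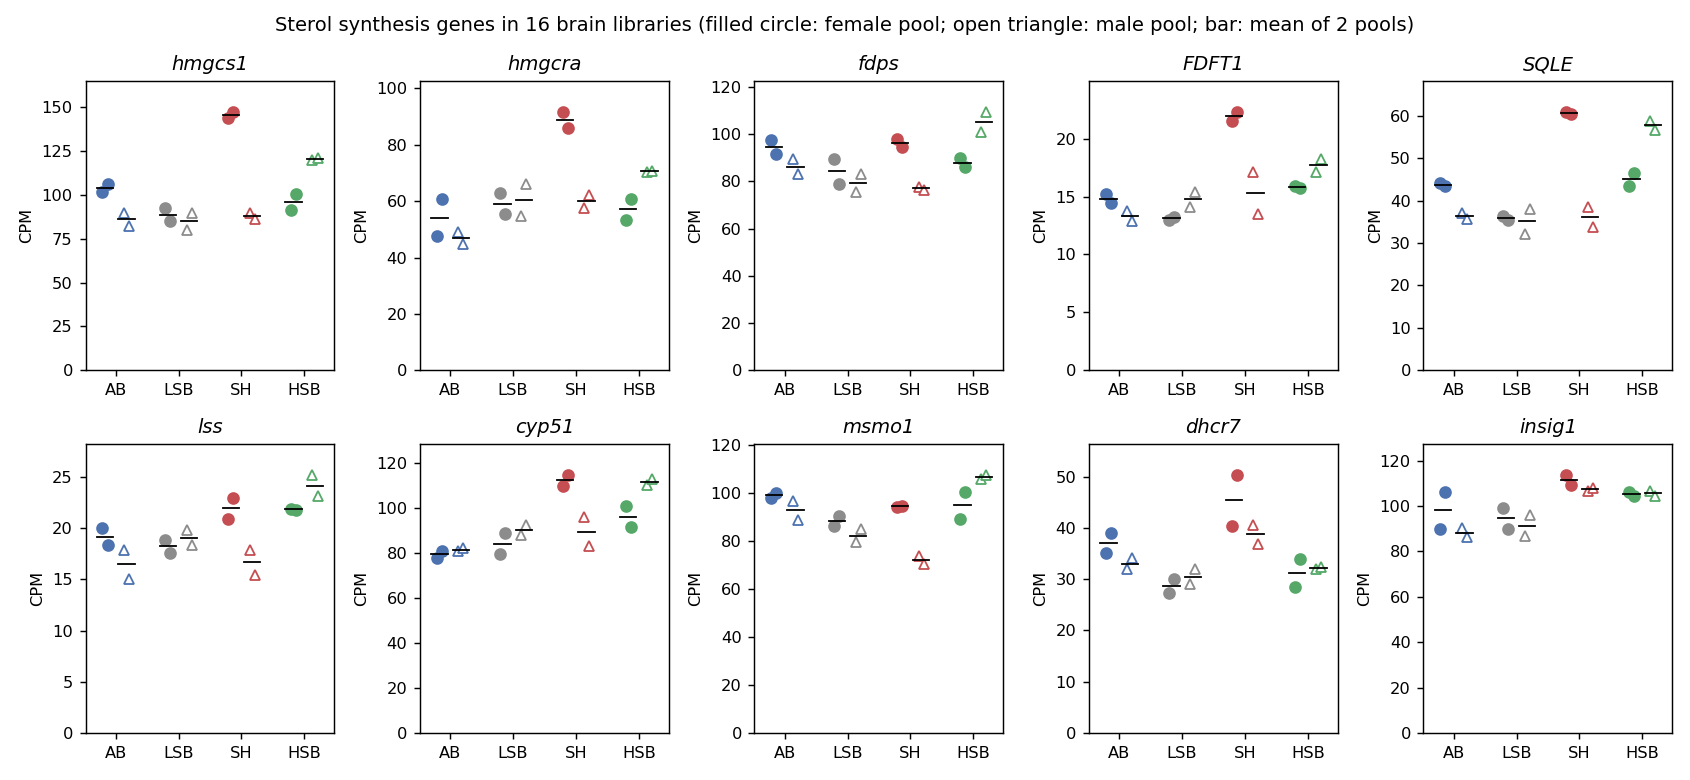
CPM of the 10 sterol synthesis genes (vertical axis, from 0) in each library, by strain (horizontal axis), with filled circles for the female pools, open triangles for the male pools and a bar for the mean of 2 pools. SH females are the highest group for 7 genes and HSB males for 3, and the flattest panel is that of insig1, whose libraries lie between 86.3 and 114 CPM.

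The sign of the sex difference was the same for all 10 genes. Each had a lower mean in SH males than in SH females and a higher mean in HSB males than in HSB females, on the scale of log2(CPM + 0.5). Of all 15304 genes, 21.9% had that pair of signs. The HSB difference of insig1 was 0.00 to 2 decimals and became -0.01 without HSB female pool 2 and -0.0094 without HSB male pool 1, and that of dhcr7 became -0.08 without HSB female pool 1. Both male pools lay below both female pools in SH for 9 of the 10 genes, all but dhcr7, where 22.6% of all genes had such pools. Both male pools lay above both female pools in HSB for 8 of 10, against 14.8% of all genes. The 8 genes, all but insig1 and dhcr7, had both features, which 2.60% of all genes had. Since the choice of the genes rested on hmgcs1 and SQLE, the count without these 2 is 6 of 8. No more is read from these shares, because the choice started from this pattern in hmgcs1 and SQLE, and the members share a pathway.

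By size, the genes formed a graded series. On the log2(CPM + 0.5) scale, the male over female difference in SH was -0.74 for SQLE, with a standard error of 0.080 from the model of all 16 libraries, and -0.72 for hmgcs1, with a standard error of 0.069. It was -0.56 for hmgcra, -0.51 for FDFT1, -0.39 for lss and -0.39 for msmo1. The values came to -0.33 for cyp51, -0.32 for fdps, -0.22 for dhcr7 and -0.05 for insig1. SQLE and hmgcs1, the genes behind the choice, headed the series in SH, and hmgcra came next. The lead of SQLE and hmgcs1 cannot be separated from how the genes were chosen, so nothing is read from it. The standard errors of their SH differences take no account of that choice. The corresponding HSB differences were smaller, at 0.36 for SQLE, 0.33 for hmgcs1, 0.30 for hmgcra and 0.26 for fdps. They were 0.22 for cyp51, 0.17 for msmo1, 0.15 for FDFT1, 0.14 for lss and 0.04 for dhcr7. The same 3 genes led in HSB. The median over the 10 genes was -0.39 in SH and 0.19 in HSB, where the median over all genes was -0.01 in both strains. The SH difference minus the HSB difference ranged from -1.10 for SQLE to -0.06 for insig1, with a median of -0.57. All 10 values stayed negative when any single library was left out. For the 8 genes whose pools did not overlap in either strain, that outcome was fixed, since leaving out a pool cannot change either sign.

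**Figure D2:**
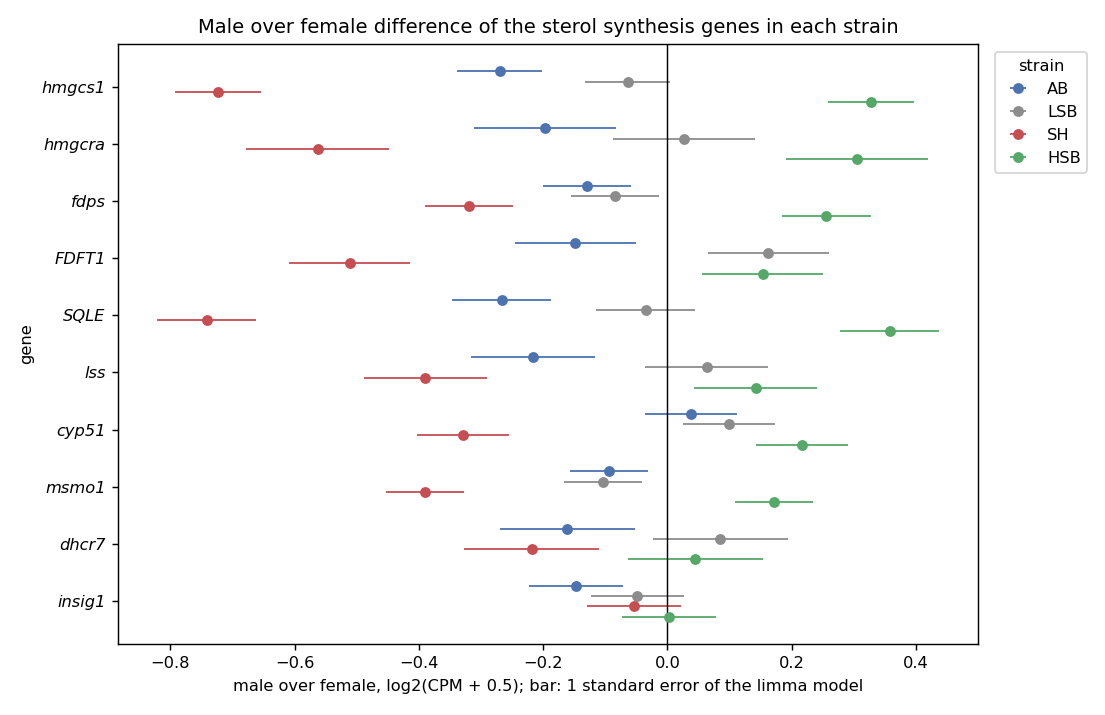
Male over female difference on the log2(CPM + 0.5) scale (horizontal axis) for each gene (vertical axis) in the 4 strains, with bars of 1 standard error from the limma model. The bars of SH and HSB take no account of how the genes were chosen. The SH points of all 10 genes lie left of 0 and the HSB points at or right of 0, and the AB points lie left of 0 for all but cyp51.

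AB and LSB, which were outside the pattern behind the choice of the genes, gave different pictures. In AB, 9 of the 10 genes had a lower mean in males, with a median difference of -0.15 where the median over all genes was -0.03. With median ratio scaling these medians were -0.12 and 0.0004, again with 9 of 10 lower. Both male pools lay below both female pools for 7 of 10, against 27.0% of all genes. The 10 genes varied together across libraries, so these counts are not 10 separate observations. The AB differences of hmgcs1 and SQLE were both -0.27, with standard errors of 0.069 and 0.080. No gene of the 10 passed an adjusted p of 0.05 in AB in the limma test over all genes, where 0.0131% of all genes did, and 3 had an unadjusted p under 0.05, as did 4.91% of all genes. The lowest adjusted p was 0.501 for hmgcs1. In LSB, 5 of the 10 genes had a lower and 5 a higher mean in males, with differences from -0.10 for msmo1 to 0.16 for FDFT1. None of the 10 passed the limma test in LSB, in which 11.0% of all genes did, and 0 had an unadjusted p under 0.05, where 29.1% of all genes did. The share of 11.0% stands for 1684 genes. That LSB count rested on single libraries, and it fell to 24 genes without LSB female pool 2, to 5 without LSB male pool 1 and to 17 without LSB male pool 2, and rose to 3565 without LSB female pool 1.

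Averaged over the 4 strains, the male over female difference of the 10 genes ranged from -0.18 for hmgcs1 to 0.01 for cyp51, with 9 of 10 negative and a median of -0.09. The SH and HSB values behind the choice of the genes enter this mean with opposite signs, so it is given as a description, with no test.

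Strains differed in the level of most of the genes. A limma test of the 3 strain terms, with sex as a further term, passed an adjusted p of 0.05 for 8 of the 10 genes, a share to be read against the 61.5% of all genes that passed. The smallest adjusted p values were 7.68e-04 for dhcr7 and 0.00168 for insig1. The genes hmgcs1 and fdps did not pass, with adjusted p values of 0.0886 and 0.119. That model takes the sex difference to be the same in every strain. With a mean for each strain and sex in place of it, an alternative chosen after seeing the data, all 10 genes passed, where 65.8% of all genes did, with an adjusted p of 8.45e-05 for hmgcs1 and 0.00663 for fdps.

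SH and HSB had higher means than AB and LSB for most of the genes, the exceptions being fdps, msmo1 and dhcr7. Compared with AB, SH was higher at adjusted p under 0.05 for 5 of the 10 genes and lower for none, where 22.8% of all genes were higher and 14.0% lower. The difference on the log2 scale was 0.53 for hmgcra (adjusted p = 0.00593), 0.37 for FDFT1, 0.31 for cyp51, 0.26 for dhcr7 and 0.24 for insig1 (adjusted p = 0.00275). Compared with LSB, SH was higher for 5 genes, hmgcs1, FDFT1, SQLE, dhcr7 and insig1, where 32.5% of all genes were higher. Here dhcr7 had the largest step, 0.49 with a standard error of 0.085, and hmgcs1 differed by 0.38 with a standard error of 0.14 (adjusted p = 0.0356). These strain means take in both sexes. For hmgcs1 the SH male pools, at 89.6 and 86.2 CPM, lay within the LSB range of 80.2 to 92.5 CPM. The SH male pools also overlapped LSB for SQLE and FDFT1, but lay above it for insig1 and dhcr7. They overlapped AB for hmgcra, FDFT1 and dhcr7, and lay above it for cyp51 and insig1. HSB exceeded AB in 3 genes, insig1, lss and cyp51, against 9.19% of all genes, with 0.36 for cyp51 and 0.36 for lss. All HSB pools lay above AB for lss and cyp51. For insig1, AB female pool 2, at 106.3 CPM, lay within the HSB range of 104.4 to 106.5 CPM. HSB had a higher mean than LSB in all 10 genes, with a median difference of 0.24 where the median over all genes was 0.03. Of these genes 4 passed, insig1, msmo1, lss and SQLE, against 12.1% of all genes, led by SQLE at 0.52 with a standard error of 0.15. All HSB pools lay above LSB for insig1, lss and SQLE. For msmo1, HSB female pool 1, at 89.3 CPM, lay below LSB female pool 2, at 90.2 CPM. Between SH and HSB, dhcr7 was higher in SH by 0.40 (adjusted p = 0.00224) and msmo1 was lower in SH, with a difference of -0.28 (adjusted p = 0.0154), where 21.1% of all genes were higher in SH and 11.7% lower. AB differed from LSB in dhcr7 alone, by 0.24 with an adjusted p of 0.04996, where 25.8% of all genes differed. These 6 comparisons share libraries and are not independent of each other.

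**Figure D3:**
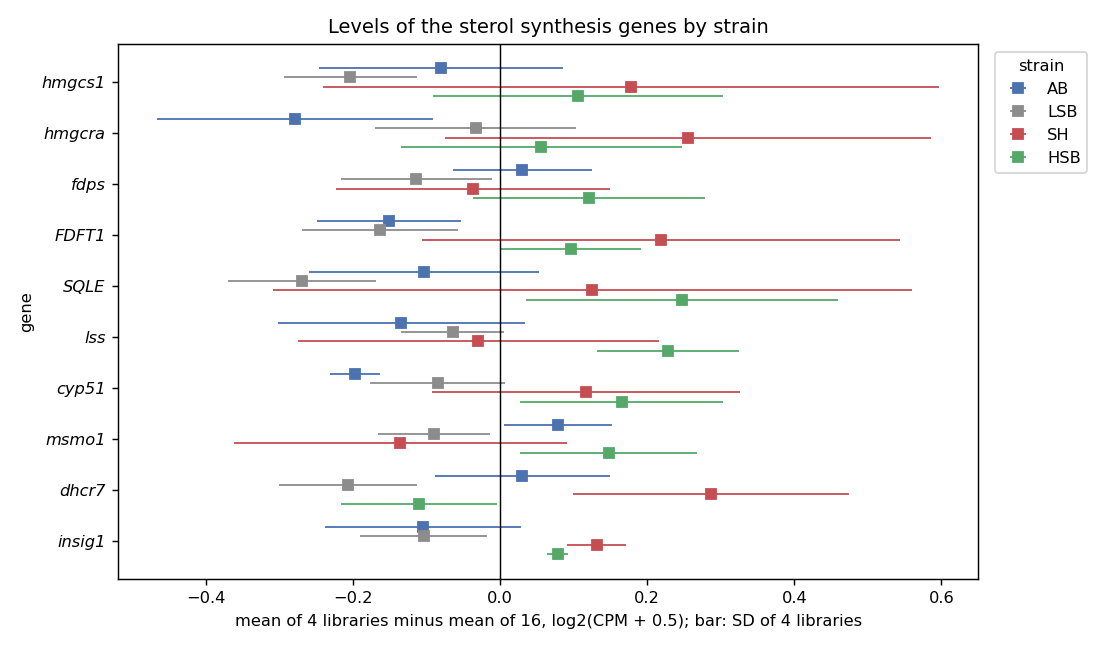
Mean level of each gene (vertical axis) in the 4 libraries of a strain, as a difference from its mean over 16 libraries on the log2(CPM + 0.5) scale (horizontal axis), with bars of 1 SD over the 4 libraries. SH has the widest bars for most genes, as its males and females lie apart, and the SH mean that lies farthest to the right is that of dhcr7.

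Calls of single genes in the strain test moved with single libraries. The count of genes called lay between 6 and 9 as single libraries were left out. SQLE lost its call without the LSB libraries (adjusted p = 0.147), and also without LSB female pool 1 (0.0637), LSB male pool 1 (0.0586), HSB male pool 1 (0.0642) or HSB male pool 2 (0.0675). The call of hmgcra was lost without AB female pool 1 (adjusted p = 0.0584), AB male pool 2 (0.0536), SH female pool 1 (0.0536) or SH female pool 2 (0.0566). FDFT1 lost its call without SH female pool 1 (adjusted p = 0.0611) or SH female pool 2 (0.0587), and lss without HSB male pool 1 (0.104) or HSB male pool 2 (0.0739). In the other direction, hmgcs1 gained a call without SH male pool 2 (adjusted p = 0.0349) or HSB female pool 1 (0.0323), and fdps without HSB female pool 2 (0.0363). The calls of dhcr7, insig1, cyp51 and msmo1 were kept in every such fit.

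Of the 11 other cholesterol synthesis genes in the table, from a list of 12, most had the same pair of signs. A lower mean in SH males and a higher mean in HSB males was found for 8 of 11, against 21.9% of all genes. For 4 of them, MVD, idi1, nsdhl and sc5dl, the pools of the sexes were apart in both strains, against 2.60% of all genes. The enzymes of this group sit at many points of the pathway, with idi1 (isopentenyl diphosphate isomerase) and MVD (mevalonate diphosphate decarboxylase) ahead of fdps, and nsdhl and sc5dl among the last sterol steps. For idi1 the levels were 114 and 116 CPM in SH females, 86.4 and 94.7 CPM in SH males, 95.7 and 102 CPM in HSB females and 104 and 109 CPM in HSB males. For sc5dl, the sterol C5 desaturase, they were 103 and 101 CPM in SH females, 87.9 and 87.7 CPM in SH males, 102 and 111 CPM in HSB females and 120.5 and 128 CPM in HSB males. Both genes showed SH females above SH males and HSB males above HSB females with no overlap. The SH difference minus the HSB difference was negative for 9 of 11, with a median of -0.39 where the median over all genes was 0.0012. In the limma test over all genes, of which 0.0327% were called, 0 of the 11 passed and 5 had an unadjusted p under 0.05, as did 3.86% of all genes. The lowest adjusted p was 0.299 for sc5dl, at -0.44 with a standard error of 0.095, followed by idi1 at -0.46 (adjusted p = 0.344). The second HMG-CoA reductase gene, hmgcrb, had overlapping pools of the sexes in both strains, with 52.3 and 56.8 CPM in SH females, 56.6 and 55.2 CPM in SH males, 50.5 and 49.9 CPM in HSB females and 48.7 and 50.2 CPM in HSB males. Its SH minus HSB value was 0.06 with a standard error of 0.093, next to -0.87 for hmgcra. In AB, 7 of the 11 other cholesterol synthesis genes had a lower mean in males, and in LSB 10 of 11. The LSB median was -0.07, where the median over all genes was 0.04. Both male pools lay below both female pools for 6 of 11 in AB, against 27.0% of all genes, and for 5 of 11 in LSB, against 20.6%. None of the 11 passed the limma test between the sexes in AB or LSB.

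**Figure D4:**
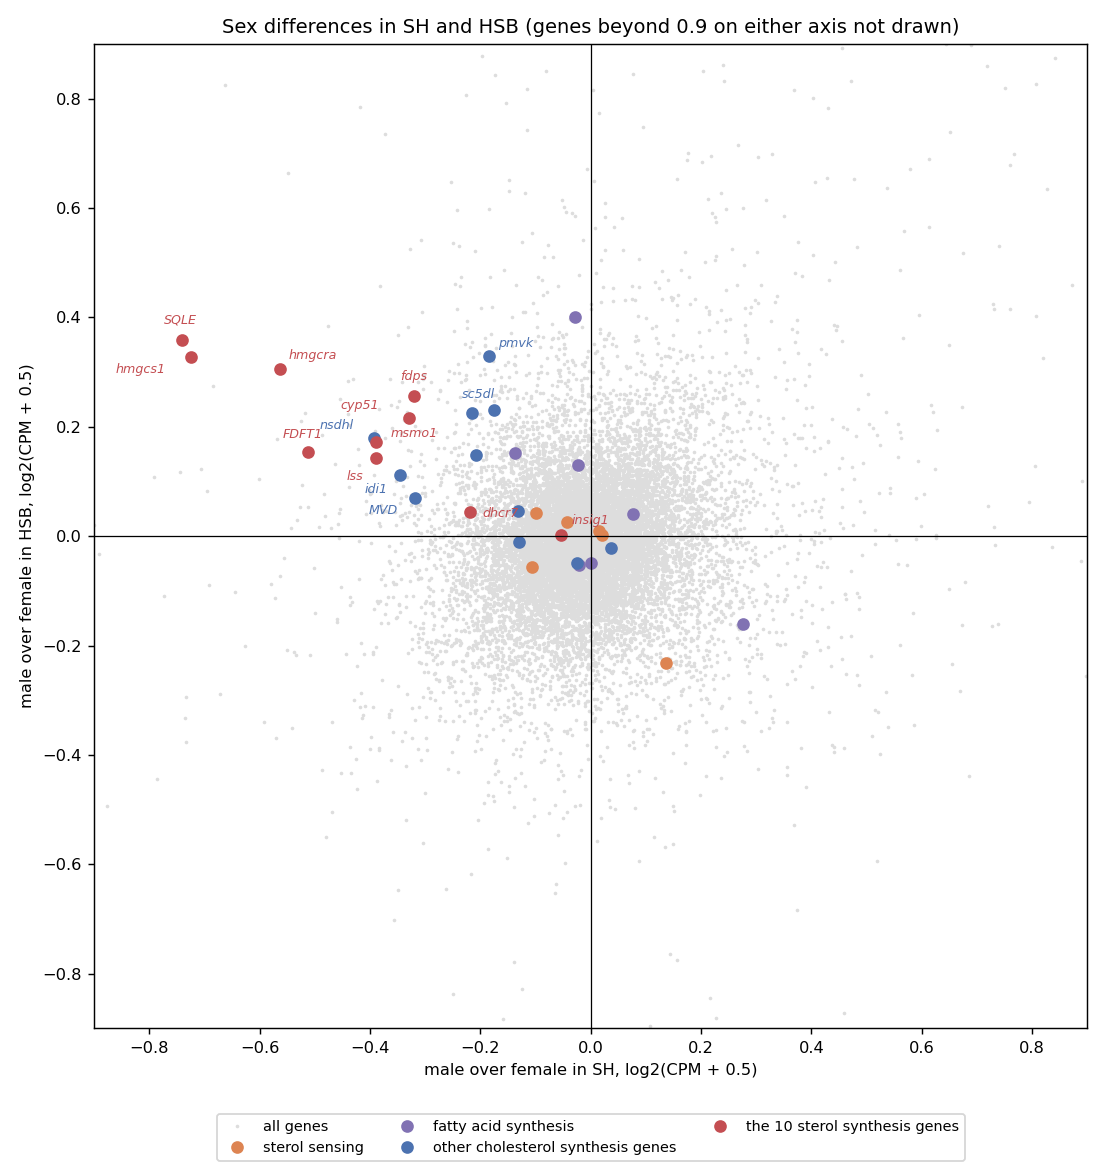
Male over female difference in SH (horizontal axis) and in HSB (vertical axis) on the log2(CPM + 0.5) scale, with all genes in grey and the pathway genes in colour. The 10 sterol synthesis genes and 8 of the 11 other cholesterol synthesis genes lie in the upper left, whereas the sterol sensing genes lie nearer the centre, with insig2 in the lower right.

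In the lists beside the synthetic pathway, the arrangement of the 8 members was not found, though with 2.60% of all genes having it, a count of 0 in lists of this size says little. None of the 6 sterol sensing genes, 6 sterol uptake and transport genes, 6 sterol efflux and turnover genes or 8 genes of the mevalonate branches had male pools below in SH and above in HSB, and of the 7 fatty acid synthesis genes acacb had the reverse arrangement, as did 2.84% of all genes. The transcription factor gene srebf2 was at 158 and 169 CPM in SH females, 162 and 142 CPM in SH males, 185 and 169 CPM in HSB females and 176 and 164 CPM in HSB males, so that the sexes overlapped in both strains. The lowest SH minus HSB values of these lists and the other cholesterol genes, 44 genes in all, were -0.57 for nsdhl, -0.52 for mylipb, a gene related to the mammalian ligase that degrades the LDL receptor, and -0.51 for pmvk, phosphomevalonate kinase. The highest were 0.44 for acacb, an acetyl-CoA carboxylase, 0.37 for insig2, the relative of insig1, and 0.32 for abca1b, a cholesterol exporter. None of the 44 was called by limma, and the adjusted p of each of these 6 was at least 0.970. At unadjusted p under 0.05 were 5 of the other cholesterol genes, 2 of the fatty acid genes, 1 each of the uptake, efflux and mevalonate branch genes and 0 of the sterol sensing genes, with 3.86% of all genes at that level.

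In LSB, 5 of these 44 genes passed the limma test between the sexes, against 11.0% of all genes. Males were higher for srebf1 (0.52, adjusted p = 0.0224), the SREBP gene linked to fatty acid synthesis, acaca (0.26), an acetyl-CoA carboxylase, and npc1 (0.19), a lysosomal cholesterol transporter. Males were lower for scarb1 (-0.45), a lipoprotein receptor, and npc2 (-0.25), the lysosomal partner of npc1. LSB females held 51.1 and 37.8 CPM of srebf1 and LSB males 65.3 and 61.0 CPM, so that the female pool numbered 2 was the lower. None of these 5 calls was kept without LSB female pool 2, LSB male pool 1 or LSB male pool 2, and 10 of the 44 genes were called without LSB female pool 1.

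Between strains these 44 genes varied in both directions. A wide step was that of tm7sf2, a sterol C14 reductase gene, at 0.61 in HSB against LSB, 0.49 in AB against LSB, -0.47 in SH against HSB and -0.35 in SH against AB. Levels of tm7sf2 were 34.7 and 26.9 CPM in AB females and 32.8 and 29.4 CPM in AB males, 22.4 and 22.2 CPM in LSB females and 20.8 and 21.7 CPM in LSB males, 25.4 and 26.2 CPM in SH females and 22.7 and 21.8 CPM in SH males, and 37.1 and 27.2 CPM in HSB females and 29.4 and 42.3 CPM in HSB males. The strain means of tm7sf2 were lower in SH and LSB than in AB and HSB, as were those of fdps and msmo1. SH exceeded AB most in insig2 (0.60), pdss2 (0.52) and nsdhl (0.46), and was lower in abcg1 (-0.43) and npc2 (-0.40) beside tm7sf2, with 8 genes called higher and 6 lower, against 22.8% and 14.0% of all genes. SH against LSB had 16 genes called higher, with insig2 (0.47), ldlr (0.45) and abca1b (0.41) leading, and 6 lower, with npc2 (-0.42), mylipb (-0.41) and abcg1 (-0.31) leading, against 32.5% and 16.5% of all genes. SH against HSB had 6 called higher and 8 lower, the leading ones being insig2 (0.39), pdss1 (0.32) and ldlr (0.30) on the high side and tm7sf2, mylipb (-0.36) and npc2 (-0.31) on the low side, against 21.1% and 11.7% of all genes. Thus insig2 was higher in SH than in each of the other strains, and the LDL receptor gene ldlr and the coenzyme Q synthesis genes pdss1 and pdss2 appeared on the high side of SH as well. HSB against AB gave 6 calls, pdss2 (0.32) and srebf2 (0.27) higher, and fasn (-0.46), lbr (-0.14), abcg1 (-0.20) and acss2 (-0.12) lower, against 9.19% of all genes higher and 9.40% lower. HSB against LSB gave 10 calls higher, with sc5dl (0.36) and acacb (0.33) after tm7sf2, and 2 lower, COQ2 (-0.21) and rabggtb (-0.17), against 12.1% and 9.84% of all genes. AB against LSB gave 5 calls, sc5dl (0.24), acaca (0.20) and fads2 (0.14) higher beside tm7sf2, and scarb1 (-0.26) lower, against 14.9% and 10.8% of all genes. Nothing particular to the 44 genes is read from these counts.

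The 10 members varied together across libraries. After the mean of each strain was taken out, the correlation between 2 members over the 16 libraries was positive for all 45 pairs, with a median r of 0.71 and a range from 0.04 to 0.98. Each gene's r with the mean of the other 9 was 0.98 for SQLE and hmgcs1, 0.92 for msmo1, 0.88 for FDFT1 and hmgcra, 0.85 for fdps and 0.81 for lss. It was lower for cyp51 at 0.74, dhcr7 at 0.61 and insig1 at 0.39. Members share their libraries, and the male and female contrast of hmgcs1 and SQLE prompted the choice, so these values are a description. Of the 15294 genes outside the group, those with the profile most like the mean of the members were sc5dl (r = 0.87), zgc:55461 (0.86), dhtkd1 (0.85), zgc:56005 (0.85), MSANTD2 (0.84), aqp11 (0.83), idi1 (0.82), slain2 (0.80), cmtm6 (0.80) and SI:DKEY-78K22.2 (0.79). Among the 100 most alike were 4 other cholesterol genes, sc5dl, idi1, nsdhl and pmvk, and no gene of the other 5 lists. As 100 of 15294 is a small share, an absence from lists of this size says little. The profile matched here also holds the male and female contrast that prompted the choice of the members. Of the genes of these lists, those with the lowest r were acacb at -0.58, COQ2 at -0.41, abca1b at -0.39, scdb at -0.38 and hmgcrb at -0.30.

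The summed level of the 10 genes ranged from 559.7 to 803 CPM over the 16 libraries. It was 795 and 803 CPM in SH females, 747 and 757 CPM in HSB males, and no more than 662 CPM in any other library. Pools of a group differed for the members by a median of 0.03 to 0.14 on the log2 scale, next to 0.08 to 0.13 for all genes, and the largest difference between pools of a group was 0.34, for hmgcra in AB females.

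Marker genes of some cell types also differed between the groups, and in whole brain fewer cells of a type and less RNA per cell cannot be told apart. The libraries held the brain's defining markers, with 6 of 8 neuronal genes in the table at a summed 4094 to 4593 CPM. Of 13 oligodendrocyte and myelin genes, 11 were in the table, among them mbpa, mpz, plp1a, plp1b, mag and cldnk. Their sum was 26859 to 28754 CPM in SH females and 29890 to 32299 CPM in SH males, and 36209 to 40208 CPM in HSB females and 43270 to 44752 CPM in HSB males. Both male pools were above both female pools for all 11 in SH, against 18.7% of all genes, and for all 11 in HSB, against 14.8%. LSB female pools held a sum of 44798 to 52410 CPM and LSB male pools 41947 to 44292 CPM, and AB ran from 37137 CPM in females to 44766 CPM in males. By gene, both male pools lay above both female pools for 10 of the 11 in AB, against 9.91% of all genes. In LSB this held for 4 of the 11, mag, myrf, UGT8 and cldn19, against 33.4% of all genes. Only mbpa had both LSB male pools below both female pools, as did 20.6% of all genes. The 7 radial glia genes in the table, of 8 listed, summed to 12894 to 13129 CPM in SH females and 10661 to 10853 CPM in SH males, and to 10699 to 11060 CPM in HSB females and 9573 to 9827 CPM in HSB males. In SH the sole gene of these with a lower mean in males was cyp19a1b, the brain aromatase gene, at a male over female difference of -0.88, while the other 6 had higher means in males and gfap, s100b and her4.1 had both male pools above both female pools. That arrangement in SH, 3 of the 7, is to be read against 18.7% of all genes. In HSB, 5 of the 7 had lower means in males, cyp19a1b among them at -0.49. Both HSB male pools lay below both female pools for 4 of the 7, cyp19a1b, slc1a2b, glula and her4.1, against 19.5% of all genes. Sums of 3 blood genes were 1778 to 2143 CPM in LSB females, against at most 1494 CPM elsewhere. Skeletal muscle genes summed to between 72.6 and 1141 CPM in AB males and to at most 244 CPM elsewhere. Retinal genes summed to between 26.2 and 73.8 CPM in AB females and to at most 48.0 CPM elsewhere. Microglia, liver and pituitary were represented by 2, 2 and 1 genes of their lists, at 26.6 to 41.8, 441 to 959.7 and 1.89 to 3.01 CPM. The part of these markers in the sterol gene results was not tested.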

How the data were processed

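Whole brains of 4 zebrafish strains were sequenced by the authors as 72 bp single-end TruSeq libraries, balanced over lanes, aligned to Zv9 with GSNAP and counted per gene with HTSeq in union mode. CASAVA 1.7 and edgeR are also named in the submitters' processing notes. The deposited values are CPM for 15304 protein-coding genes, computed by the authors, and each library sums to 1000000. Low genes were whole multiples of a single read, within 0.1 read, from which the depth of each library was taken. This division keeps depth out of the values but lets a change in a few abundant genes shift all others. The multiples did not pass as recovered counts, and no count test was run.

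All tests used limma 3.58.1 in R 4.3.3 (functions lmFit and eBayes, the latter with its trend option) applied to log2(CPM + 0.5) of the 15304 genes in 16 libraries. The strain model had strain and sex as terms, and the sex differences within strains had a mean for each strain and sex, so that the 8 groups share an estimate of the spread. P values were adjusted by Benjamini-Hochberg over all genes for each comparison, at 0.05. Fold changes on this scale understate changes of low genes. The sex term over the strains, fixed as a test, is given for the members with no p. The script was tested on simulated data. Summaries used Python 3.11.15, numpy 2.4.6 and pandas 2.3.3, and plots matplotlib 3.10.9. A group has 2 pools of different fish, which limits all p values. No column of other samples was present.

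The members, gene lists and tests were chosen with earlier results of these data known. Named genes are the 10 members. From the other lists they are each gene that passed a comparison in which at most 10 passed, otherwise the 3 largest changes in each direction. The 3 largest and 3 smallest SH minus HSB differences and the 10 genes most like the mean of the members complete the rule. Genes named for non-overlapping pools or for a low r, and idi1, sc5dl, hmgcrb, srebf1, srebf2 and tm7sf2 with their levels, were chosen after their values were seen. Alternatives were other added constants (0.1 and 1), a mean CPM of at least 5, median ratio scaling, a replicate block, leaving out each library, both LSB pools numbered 2 or all of LSB, and, added later, a mean for each strain and sex in the strain test. Promoter motifs and sequences are not analysed here. Some genes of the lists are not reported here. No genome coordinates are given, since the gene table at hand is of another assembly than Zv9.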

Additional observations from a re-analysis of the deposited data

Results flagged for a closer look

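For 8 of the 10 genes every male pool lay below every female pool in SH and above every female pool in HSB. Of all genes, 2.60% had that arrangement. Without hmgcs1 and SQLE, whose pattern prompted the choice, the count was 6 of 8. The SH difference minus the HSB difference, on the log2(CPM + 0.5) scale, was -1.10 for SQLE, -1.05 for hmgcs1, -0.87 for hmgcra and -0.67 for FDFT1. It was -0.58 for fdps, -0.56 for msmo1, -0.55 for cyp51 and -0.53 for lss. These differences between the strains were not tested for the members, since hmgcs1 and SQLE were chosen for them. Over 60 sets of 4 or 8 libraries checked for a library far from the others in a member, none stood apart. Such sets mix sexes or strains, whose differences widen the spread, so the check says little about single pools.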

How the results depend on the processing

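The number of sterol genes called in the strain test (8) stayed within 1.5 times that count under every alternative, and 0 were called between the sexes in AB or in LSB under any. Without each library in turn the count lay between 6 and 9, and the SH minus HSB median between -0.64 and -0.52. Among all genes, the 6 called between the sexes over the strains became 109 without LSB and 80 without both LSB pools numbered 2, and 5 to 52 without single libraries. In AB, 2 became 12 without LSB or without both LSB pools numbered 2, 1 with median ratio scaling, and 0 to 50 without single libraries. In LSB, 1684 became 11 without both pools numbered 2, and 5 to 3565 without single libraries. The authors left an LSB female pool out of their gene coexpression network analyses as an outlier. The cause of these changes in count was not tested. Median ratio scaling moved the higher calls in LSB from 1316 of 1684 to 882 of 1561.

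Some small differences changed sign. The difference over the strains of cyp51 (0.01) became -0.000453 without both LSB pools numbered 2, -0.0247 without LSB, and ran from -0.0255 to 0.0556 without single libraries. The LSB difference of hmgcra (0.03) became -0.0203 with median ratio scaling and -0.20 without both LSB pools numbered 2. Without single libraries it ran from -0.11 to 0.16, and that of SQLE from -0.15 to 0.0847, of fdps from -0.17 to 0.0033, of hmgcs1 from -0.14 to 0.0162 and of insig1 from -0.12 to 0.0227. With the replicate block, 8 of the sterol genes were called in the strain test, and among all genes 4 were called between the sexes over the strains, 0 in AB, 1353 in LSB and 2 in SH against HSB, where the fit without it gave 5. For pools with the same number, the female and male pool differences correlated over genes with r from -0.21 in LSB to 0.31 in HSB. Each r rests on a single pool difference in each sex, so it cannot decide whether the number marks a pairing. The lowest inferred read number of these genes was 290, and each group had 2 pools.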
